A study of Mus musculus with 6 samples.

Results

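Lysosomes and autophagy break down proteins, lipids and organelles, and 38 genes that encode parts of this system were followed in RNA sequencing of *Phf2* KO C2C12 cells. The 38 genes were taken by symbol from the 55401 gene rows of the deposited count matrix, and each symbol was found. C2C12 cells are mouse myoblasts that stop dividing and fuse when serum is withdrawn. The control group held 3 libraries of wild type cells that had received a plasmid with ZsGreen and Cas9 but no matching guide RNA, and the *Phf2* KO group held 3 libraries of cells that had received 4 pooled plasmids against *Phf2*. Both groups were sorted by fluorescence, kept in DMEM with 2% horse serum and antibiotics, and harvested 2 d post differentiation. *Phf2* encodes a histone demethylase that acts on dimethylated lysine 9 of histone H3.

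Neither group was derived from single cells. Each group came from 1 sorted pool, and the replicates are wells of a single experiment, so the effect of *Phf2* and a difference between the pools cannot be told apart. P-values measure the spread between these wells. Library totals ran from 52526109 to 67502788 estimated counts, and the 38 genes together took 0.891% to 0.939% of them. *Phf2* (chromosome 13, 48801750 to 48871119, minus strand) had 102, 95.5 and 105 CPM (counts scaled to library size) in the control libraries and 41.1, 37.6 and 38.6 CPM in the *Phf2* KO libraries. Its transcripts thus stood at 38.8% of the control level (log2 fold change -1.37, SE 0.055, adjusted p = 8.32e-09). Transcript level is not protein level, and the study reported a larger drop of PHF2 protein in the knockout myoblasts. Throughout, a gene rose or fell if edgeR's quasi-likelihood test gave an adjusted p under 0.05 over the 17310 genes tested. The log2 fold change is *Phf2* KO over control.

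As background, the lysosome is an acidic organelle. A proton pump, the V-ATPase, acidifies it, cathepsins and glycosidases digest its cargo, and membrane proteins such as LAMP1 and LAMP2 line it. In autophagy, the ULK1 and Beclin 1 complexes start a membrane that is coupled to LC3 and GABARAP proteins, closes around cargo picked by receptors such as p62, and fuses with the lysosome. TFEB, TFE3 and MITF are transcription factors that bind the letters CACGTG in promoters of many of these genes. In muscle, failure of lysosomal glycogen breakdown by acid alpha-glucosidase causes Pompe disease, and loss of LAMP2 causes Danon disease.

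The promoters are shown first because they hold the letters that these factors read. In the RefSeq table (GRCm38.p6, 250 bases before to 50 after each start), 32 of the 38 genes had a window. The letters CACGTG, which read the same on both strands, stood in a window of 14 of these 32 genes (43.8%). Over all 27025 genes of the table the share was 8.09%, and over the 11317 genes both tested here and present in the table it was 11.3%. The longer TCACGTG, searched on both strands and always overlapping CACGTG, stood in 10 of the 32 genes. The stretches below run 5′ to 3′ on the strand of the gene, with CACGTG in capitals. *Lamp1* is shown for its 4 sites and *Gla* for its 2 sites, and the others because each lies before a member of a different role. *Mcoln1*, *Ctsa* and *Ctsd* also had 2 sites in a window, and for *Ctsd* only the site nearer the start is shown.
Lamp1, chr8:13159088-13159160, plus strand: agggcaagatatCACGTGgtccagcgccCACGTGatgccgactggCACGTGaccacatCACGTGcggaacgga
Gla, chrX:134601182-134601244, minus strand: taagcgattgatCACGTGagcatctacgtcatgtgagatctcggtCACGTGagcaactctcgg
Gaa, chr11:119267811-119267840, plus strand: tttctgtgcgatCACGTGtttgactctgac
Ctsd, chr7:142387908-142387937, minus strand: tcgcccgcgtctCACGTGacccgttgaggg
Atp6v1a, chr16:44139373-44139402, minus strand: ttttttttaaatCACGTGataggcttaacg
Atg5, chr10:44268313-44268338, plus strand: cggagcgcttgcCACGTGgtcttggt

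A match is a description of these letters and not a bound site. None of the 14 members with CACGTG rose or fell, and their median log2 fold change was -0.10. The 18 members with a window but without these letters had a median of 0.00, and none of them rose or fell. For the wider genes described below, the medians were -0.034 with CACGTG and -0.035 without it, and 3.70% and 7.63% were called. Over all tested genes of the table, 6.95% of those with CACGTG and 7.24% of those without it were called. None of these differences was tested.

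**Figure D1:**
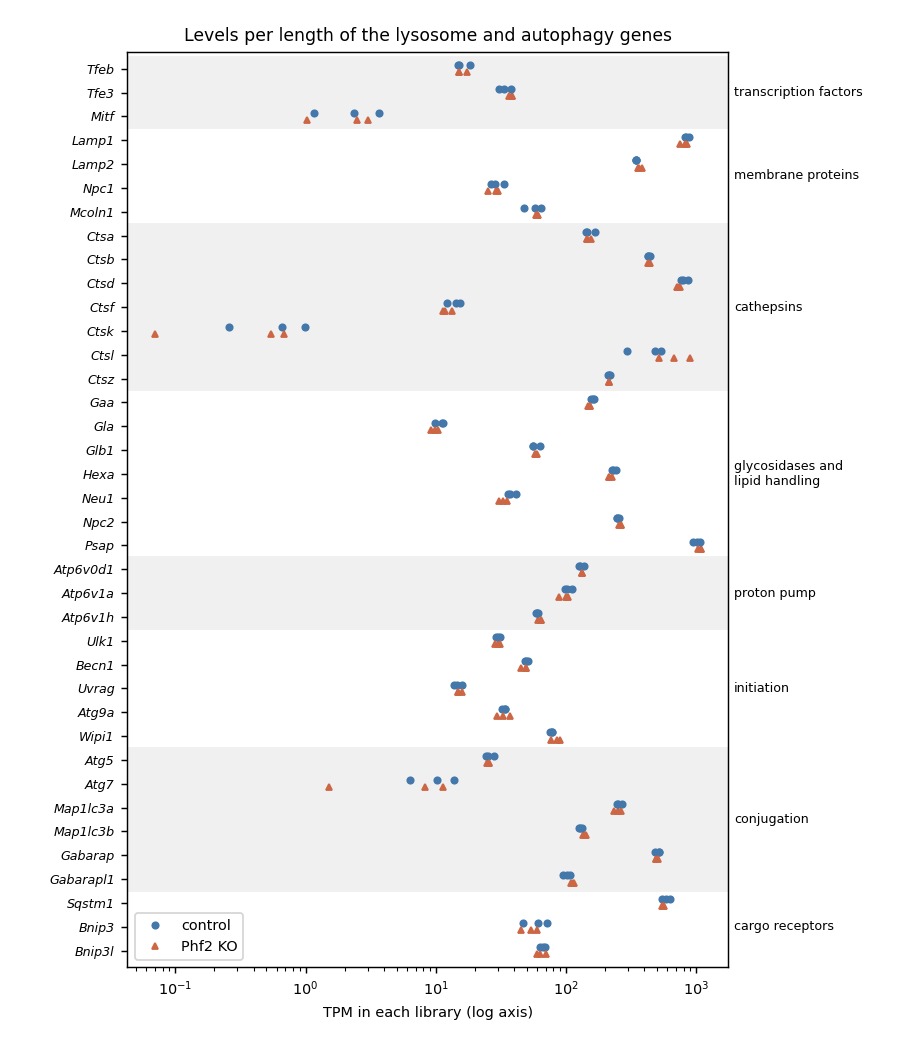
Levels per length (TPM, log axis) of the 38 genes in each of the 6 libraries, with control libraries as blue circles and Phf2 KO libraries as orange triangles, grouped by role. The mean levels run from 0.533 TPM for Ctsk to 1036 TPM for Psap, and the symbols of both groups lie close together for most genes.

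Levels between genes were compared as TPM, which divides by transcript length. The median of the 38 genes was 73.0 TPM, against 11.9 TPM over all genes tested, and 18 of the 38 exceeded 92.0 TPM, the upper decile of all genes. The most abundant was *Psap*, whose product prosaposin is cut into activators of sphingolipid breakdown, at 1036 TPM. *Ctsk*, the collagen-cutting cathepsin of osteoclasts, was nearly absent at 0.533 TPM. Of the 3 transcription factors, *Mitf* was the lowest at 2.28 TPM. *Mitf*, *Atg7* and *Ctsk* differed more than 2-fold in TPM between libraries of the same group.

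The central result is that no member passed the test. Of the 38 genes, 0 rose and 0 fell, against 3.22% of all genes tested that rose and 3.26% that fell (6.48% in either direction). At an unadjusted p under 0.05 the count was 9 of 38 (23.7%), and the share over all genes tested was 19.4%. Every *Phf2* KO library exceeded every control library for 5 members (13.2%, against 12.9% of all genes), and the 3 *Phf2* KO libraries were all under the lowest control for 6 members (15.8%, against 12.2%). These shares were near those of all genes. The exact test of edgeR called 0 members (6.52% of all genes) with 5 at an unadjusted p under 0.05 (16.5% of all genes). Limma-voom also called 0 (5.29% of all genes) with 10 at an unadjusted p under 0.05 (19.7%). DESeq2 called 1 of the 37 members it tested, *Ctsd* (10.9% of all genes), with 11 at an unadjusted p under 0.05 (18.6%).

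Deviations from the group mean correlated weakly between libraries with the same replicate number (0.158 to 0.25). The fit with these numbers as a block gave more low p-values for members. It called 1 member, *Ctsd* (7.6% of all genes), and 15 of the 38 had an unadjusted p under 0.05, against 21% of all genes. Set against the control library of the same number, the *Phf2* KO library was lower in all 3 pairs for 13 members (34.2%, against 21.1% of all genes) and higher in all 3 pairs for 8 (21.1%, against 21.3%). Of those 13, *Atg9a*, *Atp6v1a*, *Bnip3*, *Ctsf*, *Ctsk*, *Gla* and *Sqstm1* had groups that overlapped when pairs were not used. Their adjusted p in the block fit included 0.0909 for *Bnip3* and 0.178 for *Atp6v1a*.

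The differences between these wells were bounded closely. Log2 fold changes ran from -0.56 for *Ctsk* to 0.14 for *Gabarapl1*, with 13 above and 25 below 0 and a median of -0.03, where the median over all genes was -0.00096. The median size of the log2 fold change was 0.09, against 0.13 over all genes, and the median SE was 0.052, against 0.109. For 29 of the 38 members (76.3%) the whole 95% interval lay within 1.2-fold either way, which held for 32.5% of all genes tested. The other 9 were *Mitf*, *Npc1*, *Ctsf*, *Ctsk*, *Gla*, *Neu1*, *Atg9a*, *Atg7* and *Bnip3*. The share within 1.2-fold was 64.1% for the 181 tested genes of the wider lists described below. Members had a higher median level than all genes tested (73.0 and 11.9 TPM), and the part of level in the narrow intervals was not tested. A p that misses the threshold does not show that a gene had the same level in both groups. The intervals bound the difference between these wells only, as variation between pools or experiments is not in them.

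**Figure D2:**
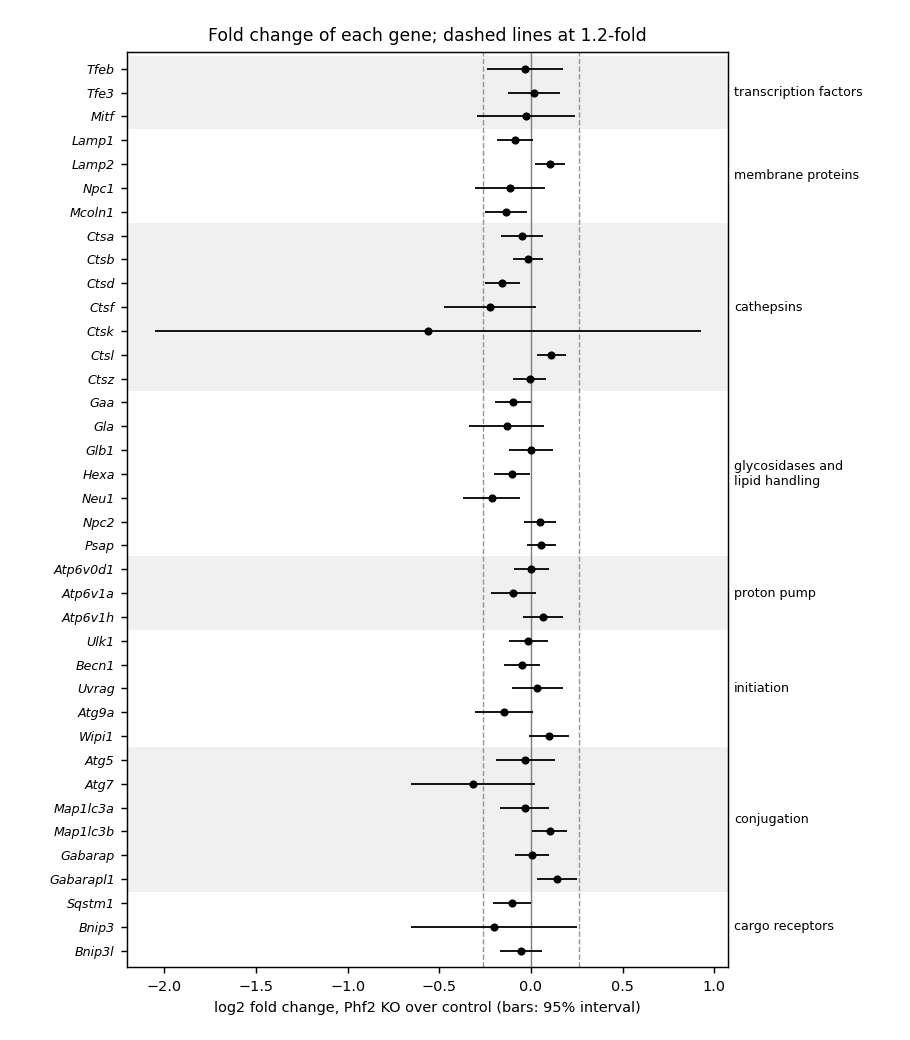
Log2 fold change of each of the 38 genes, Phf2 KO over control (points), with 95% intervals from the quasi-likelihood fit (bars) and dashed lines at 1.2-fold. Points lie between -0.56 and 0.14, and the intervals of Ctsk, Atg7 and Bnip3 reach past 1.5-fold.

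The transcription factors came first. *Tfeb*, a master regulator of lysosomal genes, had 18.4, 16.7 and 15.3 CPM in control cells and 16.0, 17.7 and 15.6 CPM in *Phf2* KO cells. The groups overlapped, and the log2 fold change was -0.03 (SE 0.097, 95% interval -0.24 to 0.18). *Tfe3* had 50.03, 47.3 and 54.2 CPM in control and 54.3, 51.3 and 47.8 CPM in *Phf2* KO cells (log2 fold change 0.02, interval -0.12 to 0.16). *Mitf* lay between 8.31 and 10.05 CPM in all libraries (log2 fold change -0.03, interval -0.30 to 0.24). The mRNA level of a factor says nothing of its position in the cell, which was not measured in these libraries.

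The membrane proteins went in both directions without passing the test. *Lamp2* had 502, 501 and 501 CPM in control cells and 532, 531 and 554 CPM in *Phf2* KO cells. All *Phf2* KO libraries were above all control libraries, at 107% of control on average (log2 fold change 0.10, SE 0.037, adjusted p = 0.13). *Lamp1*, the other abundant lysosomal glycoprotein, had 849, 874 and 910 CPM in control and 786, 876 and 818 CPM in *Phf2* KO cells, and the groups overlapped (log2 fold change -0.09, adjusted p = 0.317). *Mcoln1*, the TRPML1 calcium channel of the lysosome, had 58.0, 56.2 and 60.4 CPM in control and 54.2, 53.2 and 51.4 CPM in *Phf2* KO cells. Its groups did not overlap in CPM, at 91% of control (log2 fold change -0.14, SE 0.053, adjusted p = 0.165), while on the TPM scale its log2 fold change was 0.09. *Npc1*, which exports cholesterol from the lysosome, lay between 59.2 and 79.1 CPM with overlapping groups (log2 fold change -0.11).

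Among the cathepsins, *Ctsd* came nearest to the threshold. Cathepsin D is the main aspartic protease of the lysosome. *Ctsd* (chromosome 7, 142375911 to 142388038, minus strand) had 756, 792 and 841 CPM in control cells and 704, 742 and 697 CPM in *Phf2* KO cells. No *Phf2* KO library reached the lowest control library, and the mean was 89.7% of control (log2 fold change -0.16, SE 0.044, interval -0.25 to -0.06, adjusted p = 0.0525). In the block fit *Ctsd* passed with an adjusted p of 0.0405. It passed under 7 of the 13 other settings, with adjusted p from 0.0144 to 0.308 over them. Leaving out control replicate 1 also brought it past the threshold, at 0.0225, and leaving out any of the other 5 libraries did not. The size of the difference was about the same throughout, from -0.20 to -0.12. *Ctsd* shares exons on its own strand with *Gm49369*, for which the deposited values conflict. *Gm49369* has 0 estimated counts in all 6 libraries but 678 to 840 TPM, near the 707 to 859 TPM of *Ctsd* itself, so the counts of *Ctsd* are uncertain to the extent that reads belong to *Gm49369*.

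*Ctsl*, a cysteine protease, stood on the other side. It had 775, 790 and 788 CPM in control and 880, 837 and 825 CPM in *Phf2* KO cells, with no overlap (108% of control, log2 fold change 0.11, SE 0.037, adjusted p = 0.103). On the TPM scale its libraries spread far wider, from 295 to 535 in control and from 523 to 903 in *Phf2* KO cells, and there the groups overlapped. *Ctsb*, another cysteine protease, lay between 922 and 983 CPM in all 6 libraries, and its interval ran from -0.10 to 0.06. *Ctsz* was as even, at 138 to 145 CPM (log2 fold change -0.01). *Ctsa*, a serine carboxypeptidase that shields other hydrolases, lay between 282 and 327 CPM with overlapping groups (log2 fold change -0.05). *Ctsf* had 12.9, 10.9 and 13.8 CPM in control and 11.0, 9.84 and 11.4 CPM in *Phf2* KO cells, and its interval reached from -0.47 to 0.03. For *Ctsk*, with at most 0.687 CPM in a library, the interval of -2.05 to 0.93 held no usable bound.

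Of the 7 genes of glycan and lipid breakdown, 3 had groups that did not overlap with *Phf2* KO cells lower (12.2% of all genes), and none passed the test. *Neu1*, the lysosomal sialidase, had 44.98, 44.5 and 51.5 CPM in control and 38.1, 43.6 and 39.9 CPM in *Phf2* KO cells. Its groups did not overlap, at 86.3% of control (log2 fold change -0.21, SE 0.072, interval -0.37 to -0.06, adjusted p = 0.103). *Gaa*, the acid alpha-glucosidase that breaks down glycogen, had 272, 262 and 269 CPM in control and 259, 255 and 235 CPM in *Phf2* KO cells. *Hexa*, a subunit of beta-hexosaminidase, had 209, 213 and 223 CPM in control and 201, 208 and 191 CPM in *Phf2* KO cells. Both were about 93% of control without overlap (*Gaa* -0.10, adjusted p = 0.249, and *Hexa* -0.10, adjusted p = 0.243, as log2 fold changes). The remaining 4 genes overlapped between groups. *Glb1*, the beta-galactosidase, had a log2 fold change of 0.00060 (interval -0.12 to 0.12). *Gla*, which cleaves terminal galactose, had -0.13 (interval -0.34 to 0.07). *Npc2* and *Psap*, a carrier of cholesterol and the activator precursor, had 0.05 and 0.06, with intervals of -0.04 to 0.14 and -0.02 to 0.14.

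The 3 pump subunits did not move together. *Atp6v1h*, a regulatory subunit, had 56.8, 56.0 and 57.1 CPM in control and 57.5, 62.0 and 58.4 CPM in *Phf2* KO cells, so that all *Phf2* KO libraries were higher, at 105% of control on average (adjusted p = 0.548). *Atp6v1a*, the catalytic subunit, had 188, 200 and 212 CPM in control and 173, 193 and 195 CPM in *Phf2* KO cells, with overlap (log2 fold change -0.10, adjusted p = 0.409). *Atp6v0d1*, which links the membrane sector to the stalk, lay between 95.4 and 101 CPM (log2 fold change 0.0031).

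**Figure D3:**
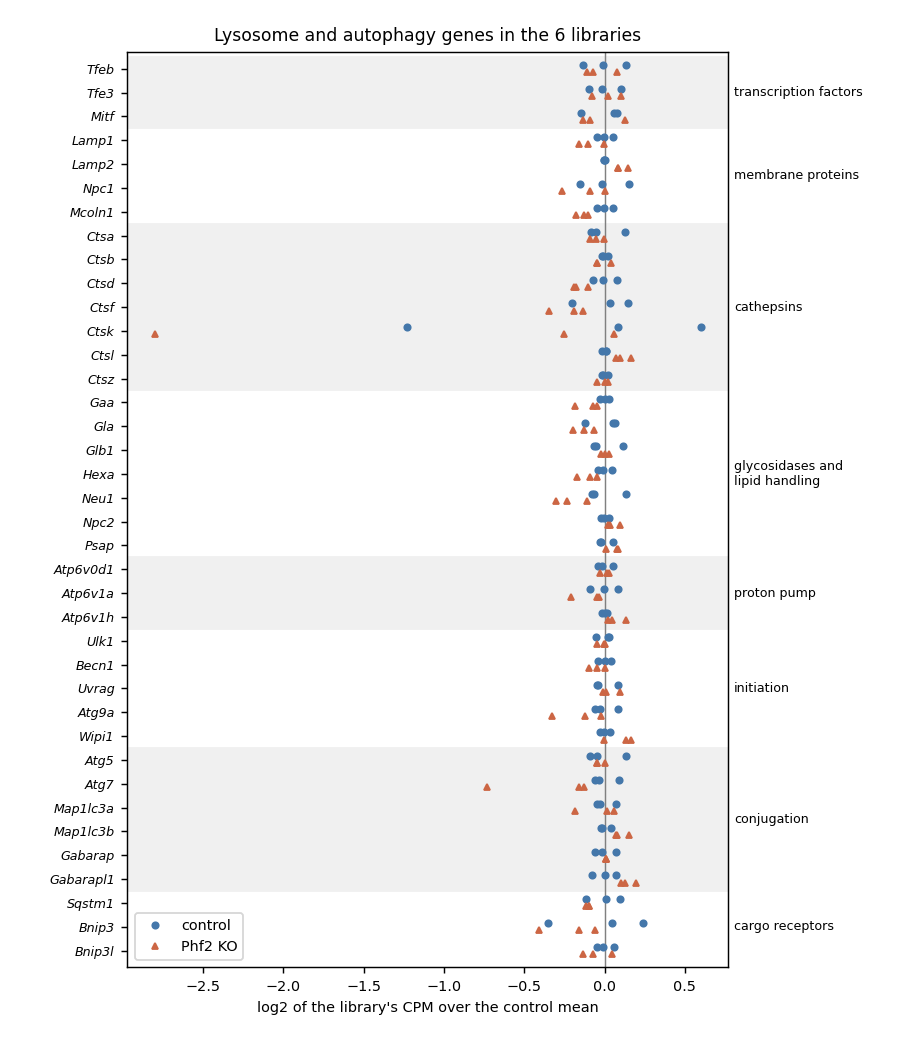
The CPM of each library over the mean of the 3 control libraries, on a log2 scale, for the 38 genes; control libraries are blue circles and Phf2 KO libraries orange triangles. For 27 genes the groups overlap, and the libraries farthest from 0 belong to Ctsk and to Atg7 in Phf2 KO replicate 1.

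All 5 genes that start autophagosomes overlapped between groups. *Ulk1*, the kinase at the top of the pathway, lay between 61.4 and 64.9 CPM, with a log2 fold change of -0.02 (interval -0.12 to 0.09). *Becn1*, of the lipid kinase complex, had -0.05, and its partner *Uvrag* had 0.03. *Wipi1*, which binds the new membrane, had 93.8, 89.7 and 91.6 CPM in control and 103, 91.4 and 101 CPM in *Phf2* KO cells (log2 fold change 0.10, adjusted p = 0.313). *Atg9a*, a membrane scramblase, had a log2 fold change of -0.15 (adjusted p = 0.288) and is uncertain. It shares exons with *Gm29253* on the same strand, and the estimated counts of *Gm29253* were 1090, 1195 and 22 in control and 941, 991 and 110 in *Phf2* KO cells. Its TPM were even within groups, at 28.6, 28.8 and 28.3 in control and 23.5, 23.1 and 24.1 in *Phf2* KO cells, so both deposited values do not go together, and the cause was not tested.

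Of the conjugation genes, the LC3 and GABARAP group held *Gabarapl1* and *Map1lc3b*, both higher in every *Phf2* KO library. *Gabarapl1* had 85.1, 80.3 and 89.1 CPM in control and 96.9, 90.9 and 92.7 CPM in *Phf2* KO cells (110% of control, log2 fold change 0.14, SE 0.051, adjusted p = 0.126). *Map1lc3b* had 152, 151 and 158 CPM in control and 171, 161 and 162 CPM in *Phf2* KO cells (107% of control, log2 fold change 0.10, adjusted p = 0.22). Neither passed the test. *Gabarap* had 324, 334 and 354 CPM in control and stayed between 338 and 339 CPM in *Phf2* KO cells (log2 fold change 0.01), and *Map1lc3a* overlapped at 111 to 133 CPM (log2 fold change -0.03).

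Within the summed TPM of these 4 genes, *Gabarap* made up 51.0% ± 0.30 in control and 49.8% ± 1.18 in *Phf2* KO cells (SD, n = 3). *Map1lc3a* made up 25.7% ± 0.91 and 25.0% ± 1.54. *Map1lc3b* made up 13.04% ± 0.34 and 13.97% ± 0.32, and *Gabarapl1* 10.2% ± 0.36 and 11.3% ± 0.34. The order of the 4 genes was the same in both groups, and the shares were not tested. These genes have related copies, and how the counting treated reads that match several places is not given in the sources used here.

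The remaining conjugation genes act before LC3 is coupled to lipid. *Atg7*, the activating enzyme of both conjugation systems, had 27.2, 26.8 and 29.7 CPM in control and 16.8, 25.5 and 24.9 CPM in *Phf2* KO cells. The groups did not overlap, but replicate 1 of the *Phf2* KO group lay far below its other 2 replicates (80.3% of control, log2 fold change -0.32, SE 0.148, interval -0.66 to 0.02, adjusted p = 0.295). Without that library the log2 fold change was -0.14, and with TPM in place of counts it was -0.69 at a pseudocount of 1 and -0.86 at 0.1, none past the threshold. In TPM the groups overlapped, at 13.9, 6.37 and 10.2 in control and 1.53, 8.32 and 11.3 in *Phf2* KO cells. *Atg5*, which conjugates to ATG12, lay between 26.4 and 30.8 CPM in all libraries (log2 fold change -0.03).

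The 3 cargo receptors all had negative log2 fold changes and overlapping groups. *Sqstm1*, which encodes p62, had 539, 586 and 622 CPM in control and 539, 545 and 546 CPM in *Phf2* KO cells. Control replicate 1 was as low as the *Phf2* KO libraries (log2 fold change -0.10, SE 0.048, adjusted p = 0.273). *Bnip3* had 37.7, 49.7 and 56.9 CPM in control and 36.2, 43.2 and 46.1 CPM in *Phf2* KO cells, and the lowest library of each group was replicate 1 (log2 fold change -0.20, interval -0.65 to 0.25). *Bnip3l*, the related receptor of mitophagy, lay between 89.9 and 103 CPM (log2 fold change -0.05).

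Overlaps of exons limit the counts of some members. Exons of 15 members overlap a gene on the opposite strand, and exons of 4 overlap a gene on the same strand, in GENCODE M21. The libraries were made with a strand-marking kit, but the strand setting of the counting is not given in the sources used here, so these genes are less certain than the 21 without overlap.

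Around these 38 genes, 186 further genes of the same pathway were taken from 9 lists drawn up by gene family, and 181 of them were tested. Of these, 7 rose and 8 fell. The share called was 8.29%, against 6.48% of all genes tested. Their median log2 fold change was -0.03, with 72 above and 109 below 0. The groups did not overlap for any of the 15, which follows largely from their selection by the test on the same libraries. Over the 181 genes, all *Phf2* KO libraries were above all controls for 20 (11%, against 12.9% of all genes tested). They were all below for 34 (18.8%, against 12.2%).

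Of 19 other initiation genes 1 rose (5.26%), and of 18 autophagosome fusion genes 2 rose (11.1%), against 3.22% of all genes tested. No gene of either list fell. Of 25 tested genes of mTORC1 and TFEB control, 1 rose and 2 fell. *Ulk2*, the relative of *Ulk1*, had 62.7, 60.4 and 66.9 CPM in control and 78.7, 81.4 and 80.5 CPM in *Phf2* KO cells (127% of control, log2 fold change 0.34, SE 0.052, adjusted p = 0.00132). *Stx17*, the SNARE that joins autophagosomes to lysosomes, had 31.4, 31.9 and 34.0 CPM in control and 39.2, 40.5 and 41.4 CPM in *Phf2* KO cells (125% of control, log2 fold change 0.32, SE 0.062, adjusted p = 0.00762). Both kept the call when any 1 of the 6 libraries was left out. *Trp53inp1*, a p53 target that binds LC3 proteins, rose with a log2 fold change of 0.38, and *Sesn3*, an inhibitor of mTORC1 signaling, with 0.28. Of 39 tested genes in the list of other hydrolases, 3 rose and 2 fell (12.8% called, against 6.48% of all genes tested). *Galns*, *Hgsnat* and *Ids* rose with log2 fold changes of 0.26, 0.23 and 0.21.

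*Tpcn1*, a cation channel of endosomes and lysosomes, had the smallest adjusted p of those that fell. It had 193, 195 and 192 CPM in control and 159, 161 and 164 CPM in *Phf2* KO cells (83.6% of control, log2 fold change -0.26, SE 0.041, adjusted p = 0.00192), and it also kept the call without any 1 library. The study named this gene from the same libraries, so its direction is not independent evidence. *Sort1*, a sorting receptor for lysosomal enzymes, fell by 0.36 on the log2 scale and *Rptor*, the subunit that defines mTORC1, by 0.18. *Flcn*, which acts on the Rag GTPases upstream of TFEB, fell by 0.22. The hydrolases *Arsb* and *Ppt2* fell by 0.27 and 0.32.

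Of 17 other subunits of the proton pump, 2 fell (11.8%, against 3.26% of all genes tested). A negative log2 fold change was found for 15 of them, against 8698 of all 17310 genes, with a median of -0.13. All *Phf2* KO libraries were below all controls for 5 (29.4%, against 12.2% of all genes tested). The groups overlapped for 12, against 12963 of all 17310 genes. The 2 that fell were *Atp6v0a1* and *Atp6v0b*, both of the membrane sector, with log2 fold changes of -0.24 and -0.23. *Atp6v0b* had 125, 128 and 134 CPM in control and 104, 118 and 109 CPM in *Phf2* KO cells. Among 10 further conjugation genes and 18 further cargo receptors, 0 rose and 0 fell (6.48% of all genes were called), and 1 and 5 of them had an unadjusted p under 0.05.

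Of the 15 calls, 12 were lost without at least 1 of the 6 libraries. *Galns*, *Hgsnat* and *Ppt2* missed the threshold whichever library was left out, with adjusted p up to 0.159, 0.182 and 0.132. *Rptor* kept its call only without control replicate 3 (up to 0.136). *Ids*, *Trp53inp1* and *Sort1* lost theirs without control replicate 1 or 2 or *Phf2* KO replicate 2 or 3, with adjusted p up to 0.165, 0.162 and 0.103, and *Atp6v0b* without control replicate 2 or 3 or *Phf2* KO replicate 1 or 3 (up to 0.0941). *Arsb* lost its call without control replicate 2 or *Phf2* KO replicate 2 or 3 (up to 0.0866), and *Atp6v0a1* without control replicate 2 or *Phf2* KO replicate 2 (up to 0.0763). *Flcn* and *Sesn3* lost theirs without control replicate 2 or *Phf2* KO replicate 3 (up to 0.0746 and 0.0762). In the fit with replicate blocks, *Galns* was the only one of the 15 that was lost.

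**Figure D4:**
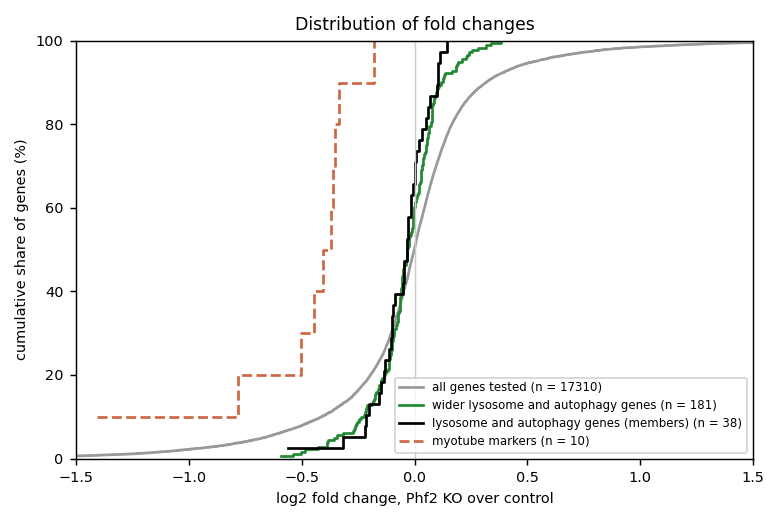
Cumulative share of genes (%) against the log2 fold change, Phf2 KO over control, for all 17310 genes tested, the 181 wider genes, the 38 members and 10 myotube markers; genes beyond 1.5 either way lie outside the axis. The curve of the members is steeper than that of all genes and crosses 50% near -0.03, and the myotube markers lie to its left with a median of -0.39.

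Markers of differentiation were followed in the same libraries. For all 10 myotube markers the *Phf2* KO libraries lay under the lowest control (12.2% of all genes tested). Of the 10, 7 fell (3.26% of all genes tested), with a median log2 fold change of -0.39. Their summed level was 9175 to 11338 TPM in control and 7417 to 8374 TPM in *Phf2* KO cells. *Ckm*, the muscle creatine kinase, fell by 0.78 on the log2 scale, *Mymk*, which drives fusion, by 0.50, *Des* by 0.37 and *Actn2* by 1.41, each also without any 1 library. The study named *Actn2*, *Myh3*, *Mymk*, *Myod1* and *Myog* for these cells, so their direction is not independent evidence. The counts, median and sum above include these genes, and the list was drawn up with earlier results of these data known. *Myh3* and *Mylpf* fell by 0.44 and 0.40, and *Myog* by 0.34. *Myh3* lost its call without control replicate 1 or *Phf2* KO replicate 1 or 3 (adjusted p up to 0.143). *Mylpf* and *Myog* lost theirs without control replicate 1 or 2 or *Phf2* KO replicate 2 or 3 (up to 0.218 and 0.129). *Acta1* (-0.36), *Tnnt3* (-0.35) and *Myod1* (-0.18) did not pass. Fewer differentiated cells and less RNA per cell cannot be told apart in such libraries, and the part of differentiation in the values of the lysosome and autophagy genes was not tested.

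Markers of macrophages, osteoclasts and adipocytes had few transcripts. The 10 macrophage and osteoclast markers summed to 12.7 to 15.7 TPM in control and 8.98 to 11.7 TPM in *Phf2* KO cells, and 4 of them were tested. *Adgre1* was listed at 0 in all libraries, and *Ptprc* and *Cx3cr1* stayed at or below 0.0327 TPM. Most of the sum was *Cd14*, which fell by 0.64 on the log2 scale. The 7 adipocyte markers summed to 0.490 to 6.40 TPM in control and 3.75 to 5.90 TPM in *Phf2* KO cells, with *Lep* listed at 0 in all libraries. The 7 fibroblast markers summed to 560 to 701 TPM in control and 685 to 754 TPM in *Phf2* KO cells, mostly *Dcn*. *Thy1* was listed at 0 in all libraries and *Dpt* fell by 0.90 on the log2 scale. The libraries came from sorted cells of the C2C12 line, and which cells carried these marker transcripts was not tested.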

How the data were processed

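RNA from 3 control and 3 *Phf2* KO wells was sequenced after poly(A) selection. HISAT2 alignments to mm10 and StringTie gene values are the authors' own. Versions and annotation are not given in the sources used here. The deposited estimated counts are whole, unscaled numbers that follow coverage times transcript length over 75 (median 74.98 to 74.99 bases per count in single-transcript genes with counts of at least 500). The deposited single-library tables hold TPM, a signal scaled by the authors within a library. Reference genes and assembled loci both appear there, and reference rows were used. Coverage, the authors' mean depth per base, served only for the count unit. Coordinates are from GENCODE M21 (GRCm38).

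The estimated counts were tested with edgeR 4.0.16 in R 4.3.3 (filterByExpr with a minimum count of 10, TMM, robust quasi-likelihood F-test, Benjamini-Hochberg adjustment, threshold 0.05, prior count 0.125). The SE is the log2 fold change over the root of F. DESeq2 1.42.0 and limma 3.58.1 were alternatives. The procedure was tested on simulated data, where false calls exceeded the nominal share when genes kept their own dispersions, so calls of wider and marker genes near the threshold are less sure than their adjusted p. Across 10923 genes, deviations from the group mean correlated at 0.25, 0.236 and 0.158 for equal replicate numbers and at most -0.0131 for different ones. Deviations cancel out within a group of 3, so positive values for equal numbers lower those for different numbers. Whether the wells were paired was not tested. The study describes no pairing, so the block was an alternative. Named genes were all members, *Phf2*, the marker genes, and of each wider list at most 3 rising and 3 falling genes that passed, taken by size of change. Members and lists were chosen with earlier results of these data known.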

Additional observations from a re-analysis of the deposited data

How the results depend on the processing

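Under the 13 alternative settings, 0 members rose, also with any library left out. The count of members that fell, 0, became 1 (*Ctsd*) with DESeq2, upper-quartile factors, no scaling beyond library size, no filter, a CPM filter of 1, the replicate block and counts divided by 4. It ran from 0 to 1 with libraries left out. The replicate block changed no other member's call, but raised the members at an unadjusted p under 0.05 from 9 to 15. Of the 15 wider genes called, 15 were kept by the exact test and by DESeq2, 12 by limma-voom and 3 at an adjusted p under 0.01. The wider counts, 7 higher and 8 lower, became 4 higher with limma-voom, 0 and 0 with limma on TPM at a pseudocount of 1 or 0.1, and 2 and 1 at an adjusted p under 0.01. They ran from 2 to 5 higher and from 1 to 7 lower with libraries left out. Over all genes the count called (1122) became 127 and 153 with limma on TPM, 472 at an adjusted p under 0.01 and 468 to 1039 with libraries left out. *Phf2* passed throughout.

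Values that changed sign belong to members that passed the test under neither setting, and the cause was not tested. All but *Mcoln1* (-0.14 in the fit reported) lay within 0.05 of 0 on the log2 scale there. With limma on TPM at a pseudocount of 1 and 0.1, *Mcoln1* was 0.087 and 0.089, *Ctsz* 0.0050 and 0.0050, and *Gabarap* -0.029 and -0.029. *Glb1* was -0.0011 with DESeq2 and with its size factors, -0.0094 with upper-quartile factors, -0.00012 with library size alone, -0.0034 without a filter, -0.0029 with the CPM filter and -0.0033 with counts divided by 4. *Atp6v0d1* was -0.0069, -0.00082, -0.00043 and -0.00027 with upper-quartile factors, without a filter, with the CPM filter and with divided counts, and *Gabarap* -0.0026 with upper-quartile factors. With a library left out, values ran from -0.099 to 0.035 for *Tfeb*, -0.027 to 0.071 for *Tfe3*, -0.11 to 0.025 for *Mitf*, -0.088 to 0.016 for *Ctsa*, -0.047 to 9.2e-05 for *Ctsb*, -0.022 to 0.013 for *Ctsz*, -0.035 to 0.058 for *Glb1*, -0.018 to 0.027 for *Atp6v0d1*, -0.077 to 0.039 for *Atg5*, -0.081 to 0.039 for *Map1lc3a* and -0.024 to 0.041 for *Gabarap*.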
